A study of Drosophila melanogaster with 12 samples.

Results

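The comparison described here was of heads of Drosophila melanogaster taken at ZT8, 8 h after lights on, from flies with a knockdown of dppil4 and from their controls. Its libraries were chosen by genotype and collection time, which gave 3 control and 3 knockdown libraries of 12 in the series, and values are given for the 10717 of 17816 genes that had enough reads to be tested. Both genotypes carried UAS-dicer2 and 1 copy of the tim(UAS)-Gal4 driver. The knockdown flies carried, opposite UAS-dicer2, a UAS hairpin against dppil4, whereas the controls had UAS-dicer2 over a chromosome without a hairpin (+). All flies had been held in 12 h of light and 12 h of dark and were sampled on the fourth day. The other 6 libraries were of the same genotypes at ZT16, in the dark phase. The study's question was the part of this enzyme in the daily cycle of the PERIOD protein. Age and sex of the flies were not given in the sources used here, nor was the number of heads per library, so p-values measure the spread between libraries, which may in part be technical. Since the controls had no hairpin, an effect of losing dppil4, of the hairpin and of the fly line it came from cannot be told apart.

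The gene dppil4 is CG5808, a nuclear cyclophilin. Cyclophilins turn the peptide bonds before proline residues between their cis and trans forms, and the human relative PPIL4 is an RNA-binding protein linked to transcription and splicing. The fly clock is a feedback loop in which CLOCK and CYCLE switch on period (per) and timeless (tim), whose proteins later block CLOCK and CYCLE. PERIOD and TIMELESS proteins are low in the middle of the light phase, and ZT8 is a time at which the per and tim transcripts are rising. The timeless promoter drives Gal4 in clock neurons, in glia and in the photoreceptors of the eye, so that most cells of the head lie outside the cells in which the hairpin is made. In RNA of a whole head, fewer cells of one type and less RNA per cell cannot be told apart.

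Levels are given as CPM, counts scaled to a common library size, and changes as log2 fold changes, knockdown minus control, with their standard error. Library totals were 36885481 to 37676778 counts at ZT8, and markers of neurons (elav, nSyb), glia (repo, alrm), photoreceptors (ninaE, chp), muscle (Mhc) and fat body (apolpp) were detected in all 6 libraries. Of lists of other tissues, 17 of 52 midgut genes, 6 of 23 ovary genes and 8 of 81 testis and accessory gland genes passed the filter on low counts, and alphaTry, betaTry, Vm26Aa, Cp36, Acp36DE and Mst57Da did not. Over the whole lists, midgut genes summed to 684 to 1335 CPM and ovary genes to 5.5 to 6.4 CPM in the ZT8 libraries. Control ZT16 replicate 1, which enters the shared fit and the comparison with ZT16, stood apart with 687 CPM of ovary genes, against 14.8 and 4.3 CPM in the other ZT16 controls, and 3497 CPM of midgut genes, against 838 and 882 CPM. Without it 1867 genes were called at ZT8. The first principal component of the ZT8 libraries held 59.2% of the variance and placed the controls at -31.1 to -17.6 and the knockdown libraries at 14.7 to 32.7. The second held 18.05% and set knockdown replicate 3 apart, at -28.0. Ribosomal RNA took over 5% of the counts in control replicate 1 (5.89%) and in knockdown replicates 1 and 2 (5.74% and 7.09%), and 2.58% to 3.27% in the other libraries. These classes crossed the genotypes. The larval serum protein gene Lsp2 followed the classes, at 395 CPM in control replicate 1 and 855 and 525 CPM in knockdown replicates 1 and 2, against 27.1 and 25.5 CPM in control replicates 2 and 3 and 8.30 CPM in knockdown replicate 3.

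CG5808 itself stood at 4.91, 4.81 and 4.93 CPM in the controls and at 4.34, 2.91 and 4.49 CPM in the knockdown. All 3 knockdown libraries lay below all 3 controls, with knockdown replicate 2 the lowest. The log2 change was -0.32 ± 0.15, short of the threshold (adjusted p = 0.19), and without knockdown replicate 2 it was -0.16. CG5808 lies on chromosome 3R (24814903 to 24817007, dm6) and overlaps CG34150 and the antisense RNA asRNA:CR46096, whose reads may be shared with it. The antisense RNA rose from 0.027, 0.025 and 0.050 CPM in the controls to 0.67, 0.44 and 0.94 CPM in the knockdown (adjusted p = 0.0020). Dcr-2, which the UAS transgene of both genotypes supplies, was at 2238 to 2548 CPM in the controls and 2124 to 2439 CPM in the knockdown. Of 14 cyclophilin genes tested, Moca-cyp was lower (175 against 154 CPM on average, adjusted p = 0.034), but 9 of the 12 fits that leave out 1 library lost it. The other 13 did not pass. The called share of the list was 7.14%, against 15.6% of all genes tested.

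Across all genes, 1671 of 10717 differed between knockdown and control (15.6%) at an adjusted p under 0.05. Of these, 947 were raised (8.84%) and 724 were lowered (6.76%). The split depended on the scaling: log2(TPM plus 0.1) gave 573 raised and 1760 lowered, with the median of all genes at -0.14, no scaling factors gave 732 and 1098, with the median at -0.08, and TPM centred on its median gave 943 and 541. The number depended on single libraries, where a replicate named without a time is one of ZT8. It was 2735 without control replicate 1, 673 without control replicate 2, 733 without control replicate 3, 920 without knockdown replicate 1 and 1004 without knockdown replicate 2, and 871 in the 6 ZT8 libraries fitted without those of ZT16. A smaller set passed in the same direction in all 12 fits that leave out 1 library and in the fit of the ZT8 libraries alone. It is called held below and counts 558 genes (5.21%), 330 raised (3.08%) and 228 lowered (2.13%). All 558 had groups that did not overlap, which was also true of 31.6% of all genes tested. Where groups do not overlap, the direction must be the same in the libraries over 5% rRNA and in those under it. That was so for all 558 and for 62.6% of all genes tested, and it adds no separate support. All 558 passed with this rRNA class of the ZT8 libraries (over 5% or not) as a term in the fit.

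Most held changes were small. Of the 330 raised genes, 106 rose 2-fold or more and 149 by less than 1.5-fold, and of the 228 lowered genes 39 fell 2-fold or more and 145 by less than 1.5-fold. The median log2 change was 0.65 over the held raised genes, -0.45 over the held lowered genes and -0.01 over all genes tested, with quartiles of -0.12 and 0.15. Together the held raised genes went from 23055 CPM in the mean control to 35499 CPM in the mean knockdown library, and the held lowered genes from 28520 to 21341 CPM.

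**Figure D1:**
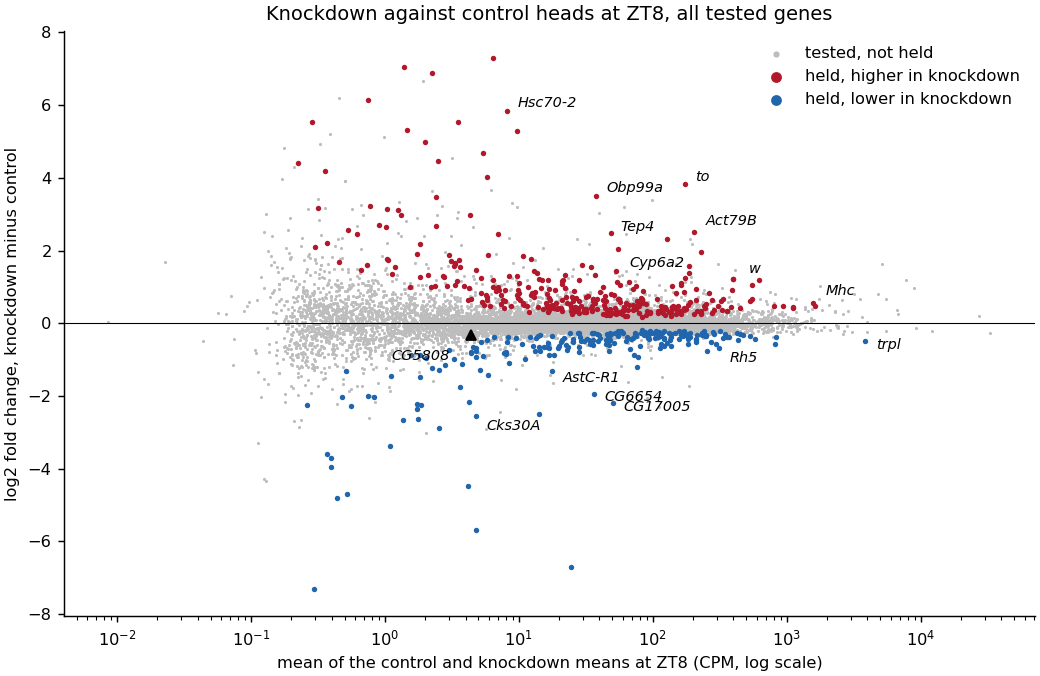
Log2 fold change (knockdown minus control) against the mean level at ZT8 in CPM on a log scale, 1 point per tested gene; genes with no read in any control library are not drawn. Held calls are red (330 raised) or blue (228 lowered) and the triangle is CG5808. Large rises such as to and Tep4 sit at middle levels, while the abundant genes Mhc and trpl moved by 0.47 and -0.50.

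Among held genes with at least 5 CPM in the higher and 1 CPM in the lower group, the largest rise was that of takeout (to), a secreted protein of the fat body and head that is under clock control and linked to feeding. It was at 23.5, 21.9 and 22.9 CPM in the controls and at 404, 369 and 196 CPM in the knockdown. The groups were far apart, with knockdown replicate 3 the lowest of its group, and the log2 change was 3.83 ± 0.24 (adjusted p = 1.2e-05). Next came the odorant binding protein Obp99a, at 6.45, 6.04 and 5.81 CPM against 46.3, 43.7 and 117 CPM (3.50 ± 0.43, adjusted p = 0.0013). Here knockdown replicate 3 was the highest. Act79B, an actin of tubular muscles, followed with 72.1, 58.1 and 54.2 CPM against 425, 425 and 193 CPM (2.50 ± 0.39). Tep4, a secreted thioester protein of insect immunity, had nearly level groups, at 47.3, 41.9 and 38.2 CPM in control against 214, 200 and 227 CPM in knockdown (2.33 ± 0.12, adjusted p = 1.0e-06). The other 8 of the 12 largest rises were BomBc1, Ugt37A3, Cyp6a2, Cyp6w1, CG14502, Cyp12d1-p, plh and CG33098, with log2 changes of 2.49 down to 1.74.

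By the same rule, 4 of the 12 largest falls were of neighbouring genes. The genes lncRNA:CR45456, lncRNA:CR45457, CG17005 and Cks30A lie side by side on chromosome 2L (9325845 to 9331981). Cks30A, a subunit of cyclin-dependent kinases used in the female germline, was at 11.1, 7.16 and 6.26 CPM in the controls and 1.82, 1.74 and 0.65 CPM in the knockdown (-2.54 ± 0.44, adjusted p = 0.0044). CG17005 was at 94.7, 81.0 and 72.7 CPM against 22.0, 22.6 and 9.39 CPM (-2.20 ± 0.27). The 2 noncoding RNAs fell by 2.48 and 2.18 on the log2 scale, and in all 4 genes knockdown replicate 3 had the lowest value. CG6654, on 3R, fell with little spread from 53.9, 61.1 and 57.9 CPM to 16.8, 14.4 and 14.1 CPM (-1.93 ± 0.09, adjusted p = 1.2e-07). AstC-R1, a receptor of the neuropeptide allatostatin C, fell from 26.3, 24.0 and 26.1 CPM to 10.8, 10.6 and 9.18 CPM (-1.32 ± 0.07, adjusted p = 5.2e-07). The zinc transporter gene ZnT33D (-1.09 ± 0.09), Mink (-1.12 ± 0.20), CG7906 (-1.75 ± 0.24), asRNA:CR45600, lncRNA:CR46481 and lncRNA:CR46483 (-1.41 ± 0.24) made up the rest.

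**Figure D2:**
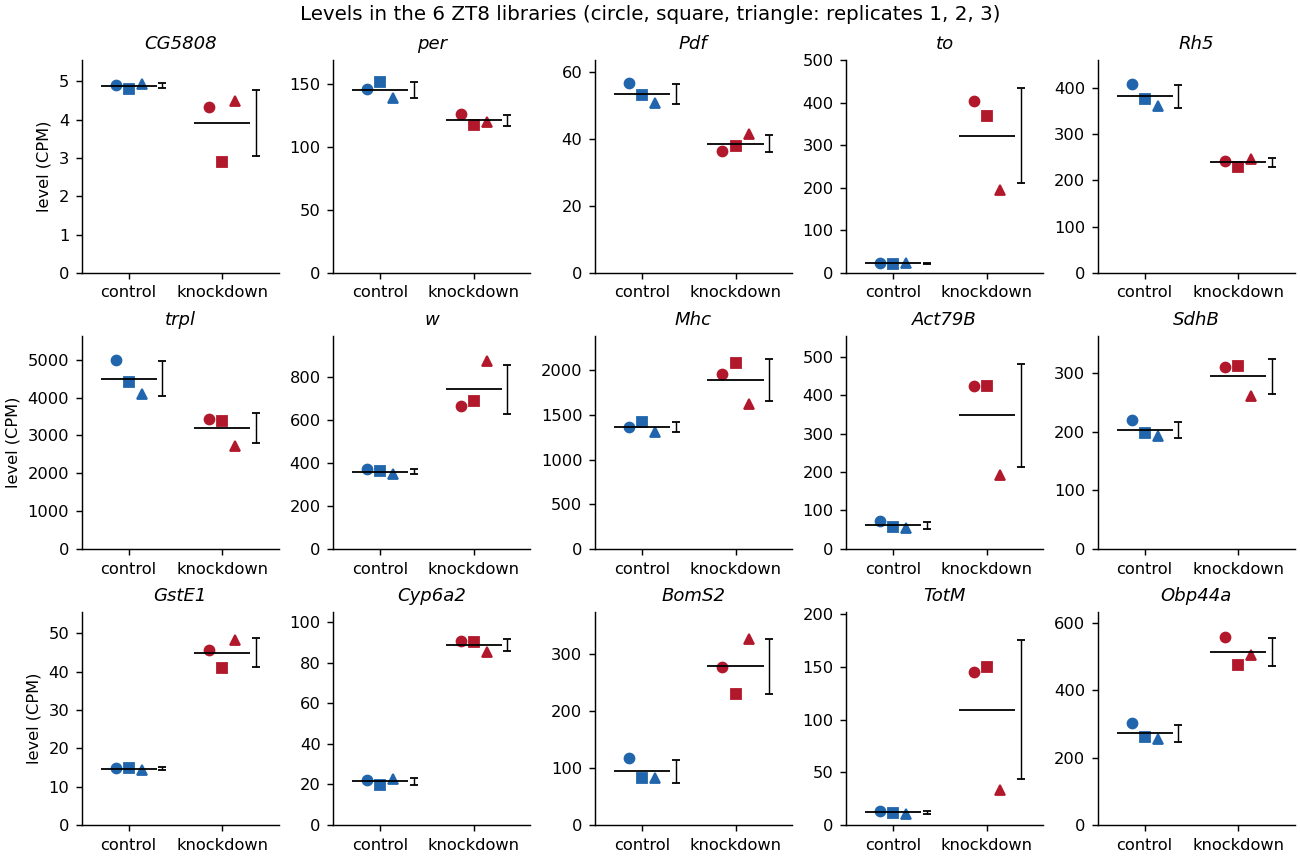
Level in CPM (linear, from 0) of 15 genes in the 3 control and 3 knockdown libraries at ZT8, with the group mean (line) and SD (bar); symbols mark replicates 1 to 3. In CG5808 knockdown replicate 2 is low, in to, Act79B and TotM knockdown replicate 3 lies nearest the controls, and in GstE1, Cyp6a2, Rh5 and Obp44a each group is tight.

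Transcripts of visual pigments were lower in the knockdown. Rhodopsins are the light receptors of the photoreceptors, and of 7 opsin genes tested 5 fell and none rose, with 4 held. With 1 library left out the count of lowered opsins was 4 to 6. Of all genes tested, 6.76% fell. Rh5, the blue opsin of the inner photoreceptors, was at 410, 376 and 360 CPM in control against 243, 229 and 247 CPM in knockdown, a fall to 0.628 of control (-0.67 ± 0.06, adjusted p = 1.5e-05). Rh6, the green opsin of the inner photoreceptors in the other type of ommatidium, was at 623, 697 and 680 CPM against 499, 471 and 508 CPM (-0.44 ± 0.06). Rh3, an ultraviolet opsin, was at 992, 938 and 900 CPM against 712, 718 and 734 CPM (-0.39 ± 0.05). Rh7, an opsin also found in clock neurons, was at 46.4, 42.9 and 42.9 CPM against 36.4, 34.6 and 34.0 CPM (-0.33 ± 0.07). The groups of Rh5, Rh6, Rh3 and Rh7 did not overlap. The main opsin ninaE was lower too (-0.28, adjusted p = 0.034), but 7 of the 12 leave-one-out fits lost it. Rh4, the ultraviolet opsin that is the alternative to Rh3, had a log2 change of -0.04 (adjusted p = 0.73), and Rh2 of the ocelli one of -0.28 (adjusted p = 0.073).

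Below the opsins, 9 of 36 further phototransduction genes fell, none rose, and 6 falls were held. The count of falls was 6 without control replicate 2. The largest were CarT, the photoreceptor transporter of carcinine for histamine recycling (87.9, 83.0 and 80.6 CPM against 53.7, 52.7 and 46.9 CPM, -0.71 ± 0.07), and stops, a protein that keeps up the level of the visual phospholipase C (147, 139 and 135 CPM against 96.9, 87.8 and 76.2 CPM, -0.69 ± 0.08). The lipid phosphatase gene laza (-0.63 ± 0.08), ninaG, whose product makes the chromophore of rhodopsin (-0.49 ± 0.09), and rdgB, a phosphatidylinositol transfer protein (-0.28 ± 0.06), fell as well. The light-gated channel gene trpl was at 5000, 4403 and 4098 CPM in control against 3445, 3387 and 2733 CPM in knockdown (-0.50 ± 0.10, adjusted p = 0.0063). Its partner trp changed by -0.21 (adjusted p = 0.048), a call that 11 of the 12 leave-one-out fits lost. Other core genes did not pass: norpA, the phospholipase itself, changed by -0.21 (adjusted p = 0.058), ninaC by -0.24 (adjusted p = 0.095) and inaD by -0.07 (adjusted p = 0.58). The list's median was -0.10, against -0.01 over all genes, and the sum of its levels was 48578 to 50368 CPM in control against 41149 to 45397 CPM in knockdown. Cpr72Ec, a protein of the corneal lens, fell from 304, 332 and 325 CPM to 196, 191 and 182 CPM (-0.76 ± 0.06, adjusted p = 7.7e-06). Of 21 glial markers none passed edgeR's test; 1 higher and 4 lower had an unadjusted p under 0.05, DESeq2 called 1 lower, and without knockdown replicate 3 edgeR called 4 lower.

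The eye pigment genes did not move together. Of 15 tested, 3 were raised and 4 lowered. Calls were 46.7% of this list, against 15.6% of all genes (8.84% raised and 6.76% lowered). Held changes were the rise of white (w), the transporter of pigment precursors and the usual marker gene on fly transgenes, and the fall of garnet (g), a vesicle adaptor subunit. White was at 369, 362 and 346 CPM in control against 665, 686 and 873 CPM in knockdown (1.05 ± 0.10, adjusted p = 7.9e-05), whereas g went from 115, 125 and 124 CPM to 102, 102 and 104 CPM (-0.24 ± 0.05). The part of the transgenes in the level of w was not tested. Raised but not held were Hn and ry, lowered but not held were se, bw, the partner of white, and st, its other partner. Without control replicate 2 the counts were 1 raised and 2 lowered.

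Several receptors and channels of neurons were lower in the knockdown. Of 45 neurotransmitter receptor genes, 11 fell and 1 (Grd) rose, and 7 falls were held. Calls were 26.7% of this list, against 15.6% of all genes (6.76% lowered). DopEcR, a receptor of dopamine and ecdysone, went from 507, 481 and 501 CPM to 378, 392 and 320 CPM (-0.45 ± 0.07, adjusted p = 0.0022). Octalpha2R, an octopamine receptor, went from 73.7, 72.5 and 76.4 CPM to 50.6, 55.5 and 51.3 CPM (-0.50 ± 0.05, adjusted p = 6.0e-05). GluRIIA, a glutamate receptor subunit of the nerve-muscle junction, fell from 16.2, 17.3 and 18.2 CPM to 10.2, 10.99 and 12.0 CPM (-0.64 ± 0.08). The groups of DopEcR, Octalpha2R and GluRIIA stayed apart. The other held falls were those of TyrRII (-0.47), GluRIB (-0.38), KaiR1D (-0.35) and 5-HT2B (-0.27).

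Of 28 voltage-gated and leak channel genes, 8 fell and 1 (Ork1) rose, with 2 falls held. These were Ca-alpha1D, an L-type calcium channel (360, 401 and 386 CPM against 300, 299 and 272 CPM, -0.40 ± 0.06, adjusted p = 0.0015), and unc79, a partner of the sodium leak channel (605, 606 and 557 CPM against 493, 476 and 429 CPM, -0.34 ± 0.07, adjusted p = 0.0060). The counts of falls were 2 without control replicate 2 and 14 without control replicate 1 for the channels, and 7 and 15 for the receptors. Channels and receptors are long, with a median longest transcript of 7735.5 and 5019 bases against 2028 over all genes. The median over mRNA genes of more than 6000 bases was lower in each knockdown library than in any control, as given further on. The part of length in these counts was not tested. Of 33 synaptic vesicle and transmitter genes, whose median length was 3913 bases, 3 fell (DAT, brp and Syt1) and 2 rose (Ddc and ple), with none held, and without control replicate 2 none fell and without control replicate 1 there were 7. Calls were 15.2% of this synaptic list, near the 15.6% of all genes, and 32.1% of the channel list. The neuron marker elav was lower (-0.31, adjusted p = 0.025), and nSyb was not (-0.04, adjusted p = 0.71).

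Among 37 neuropeptide genes 3 fell and none rose, with Pdf held. Calls were 8.11% of this list, against 15.6% of all genes tested. Without control replicate 1 there were 6 lowered and 6 raised, and without control replicate 2 there were 2 lowered. Pdf, the output peptide of the ventral lateral clock neurons, was at 56.6, 52.9 and 50.7 CPM in control against 36.4, 37.8 and 41.3 CPM in knockdown (-0.47 ± 0.06, adjusted p = 0.00046), to 0.720 of control. All knockdown values lay below all control values. Capa (-0.35, adjusted p = 0.0076) and Dh44 (-0.26, adjusted p = 0.012) were lower too but not held. Arc1, which forms virus-like capsids that carry RNA between cells, fell from 300, 333 and 330 CPM to 212, 228 and 238 CPM (-0.51 ± 0.09, adjusted p = 0.0049). Of the 12 activity-regulated genes tested, Cdc7 was the only other call (0.27, adjusted p = 0.024, not held). Their called share was 16.7%, near the 15.6% of all genes.

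In the clock itself, per and tim were lower. Period was at 145, 151 and 138 CPM in control against 126, 118 and 119 CPM in knockdown, a held fall to 0.834 of control (-0.26 ± 0.05, adjusted p = 0.0039). Timeless was at 774, 760 and 741 CPM against 675, 645 and 657 CPM (-0.20 ± 0.05, adjusted p = 0.020), a call that 4 leave-one-out fits lost. Neither pair of groups overlapped. The other 6 core genes did not pass: Clk (-0.11 ± 0.09), cyc (-0.11 ± 0.07), vri (0.11 ± 0.06), Pdp1 (-0.09 ± 0.07), cwo (0.02 ± 0.05) and cry (0.11 ± 0.08), with adjusted p of 0.28 to 0.87. Among 17 genes for the kinases, phosphatases and turnover factors of clock proteins, 2 fell and both were held. Calls were 11.8% of this list, against 15.6% of all genes. Usp8, a deubiquitinase that acts on CLOCK, went from 240, 243 and 235 CPM to 185, 173 and 178 CPM (-0.42 ± 0.04, adjusted p = 0.00011). Twins (tws), a subunit of the phosphatase PP2A that acts on PERIOD, went from 171, 181 and 184 CPM to 147, 156 and 147 CPM (-0.25 ± 0.04, adjusted p = 0.0032).

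Muscle genes were higher in the knockdown. Of 28 sarcomere genes, 19 rose and 1 fell, with 10 rises held. Calls were 71.4% of this list, against 15.6% of all genes. Without control replicate 3 the rises were 10 and without knockdown replicate 3 they were 22. Mhc, the muscle myosin heavy chain, was at 1364, 1424 and 1308 CPM in control against 1965, 2081 and 1626 CPM in knockdown (0.47 ± 0.09, adjusted p = 0.0058). The light chain gene Mlc1 was at 105, 107 and 110 CPM against 209, 222 and 146 CPM (0.84 ± 0.12). Zasp66, a Z-disc protein, was at 242, 232 and 235 CPM against 591, 690 and 378 CPM (1.23 ± 0.22), and TpnC41C, a calcium sensor of the thin filament, went from 15.4, 19.1 and 18.5 CPM to 55.7, 62.8 and 36.4 CPM (1.55 ± 0.27). In each of these, no control reached the lowest knockdown library, which was replicate 3. The troponin T gene up (0.68 ± 0.11), wupA, which encodes troponin I (0.58 ± 0.10), Mlc2, Tm2 and Unc-89 were held too. Act57B fell (-0.37, adjusted p = 0.016, not held), and Act88F, the actin of the flight muscle, was at 8.34 to 11.6 CPM against 10.1 to 16.7 CPM and did not pass. The summed level of the list was 8639, 9337 and 8835 CPM in control against 12512, 13554 and 9669 CPM in knockdown. Arginine kinase (Argk), which buffers energy in muscle, rose from 1435, 1200 and 1194 CPM to 1981, 1988 and 1642 CPM (0.55 ± 0.10).

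Most genes of the mitochondrial energy chain rose by small steps. Of the subunits of complex I, the first complex of the respiratory chain, 29 of 33 rose, of complexes II to IV 22 of 25, and of ATP synthase 11 of 12, with none lowered. The medians were 0.31, 0.38 and 0.35 on the log2 scale, with ranges of 0.15 to 0.43, -0.89 to 0.61 and 0.15 to 0.46. The lowest value, of COX4L, did not pass (adjusted p = 0.074). On the median-centred TPM scale the medians were 0.33, 0.41 and 0.37. On log2(TPM plus 0.1) without centring they were 0.18, 0.26 and 0.22, and the rises numbered 8, 19 and 8. Held rises were fewer, at 6, 10 and 2. Without control replicate 2 the rises were 7, 10 and 3. SdhB, the iron-sulfur subunit of complex II, was at 219, 198 and 192 CPM in control against 310, 313 and 261 CPM in knockdown (0.53 ± 0.08, adjusted p = 0.0016). Cyt-c1 of complex III was at 307, 275 and 276 CPM against 387, 373 and 349 CPM (0.37 ± 0.05, adjusted p = 0.0011). ND-24 of complex I was at 106, 98.7 and 98.3 CPM against 137, 133 and 121 CPM (0.37 ± 0.05). ATPsynO was at 237, 188 and 188 CPM against 300, 285 and 258 CPM (0.46 ± 0.09). Control replicate 1 was the highest control and knockdown replicate 3 the lowest knockdown library in SdhB, Cyt-c1, ND-24 and ATPsynO. The genes of these lists are short, with a median longest transcript of 807, 740 and 934 bases against 2028 over all genes. Of all genes of 500 to 1000 bases, 12.9% rose and 3.16% fell. The part of length in the rises was not tested.

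Of 16 enzymes of the citric acid cycle, 10 rose and none fell, with 5 held. Of all genes tested, 8.84% rose. The aconitase gene mAcon1 went from 832, 778 and 732 CPM to 1111, 1175 and 997 CPM (0.49 ± 0.08, adjusted p = 0.0019), and Pdha, Idh3b, CG5214 and Nc73EF rose by 0.33 to 0.43. The rises were 6 without control replicate 2 and 15 without control replicate 1. Of 15 glycolytic genes, 5 rose and none fell. Ldh, the lactate dehydrogenase, was the held one, with 10.9, 9.04 and 8.72 CPM against 15.6, 14.7 and 18.03 CPM (0.76 ± 0.11). The rises were 3 without control replicate 2 and 12 without control replicate 1. Of 73 mitochondrial ribosomal proteins, 11 rose (15.1%), 3 of them held, and without control replicate 2 there were 3. Of all genes of 500 to 1000 bases 12.9% rose, and this list had a median longest transcript of 783 bases. In that list mRpL37 stood apart, from 17.2, 17.4 and 17.2 CPM to 38.9, 41.6 and 37.8 CPM (1.19 ± 0.05, adjusted p = 8.4e-08). Mitochondria are dense in muscle. The summed level of complex I was 3945, 3510 and 3502 CPM in control against 4666, 4564 and 4090 CPM in knockdown, so that control replicate 1 was the highest control, whereas it was the lowest for the sarcomere list. Knockdown replicate 3 was the lowest knockdown library for both. The part of muscle in the mitochondrial rises was not tested.

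**Figure D3:**
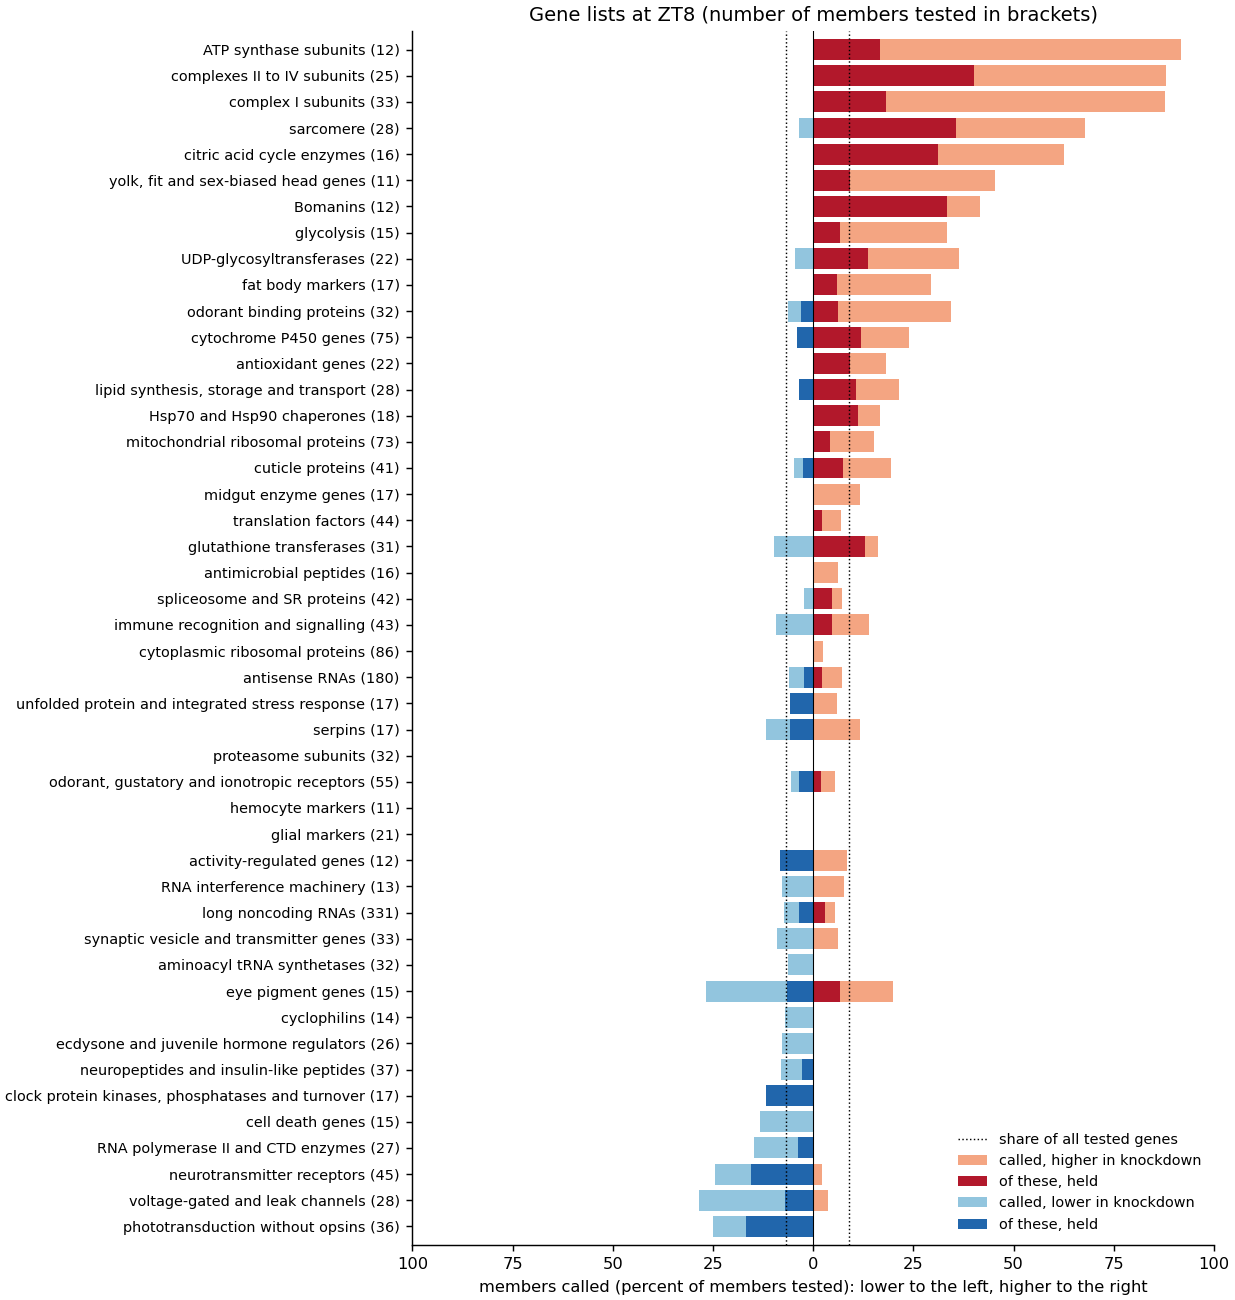
Share of the tested members of each list of 10 or more genes that were called (light) and held (dark), lower in knockdown to the left and higher to the right, in percent of members tested; dotted lines are the shares over all tested genes (6.76% lowered and 8.84% raised). The mitochondrial complexes and sarcomere lists lie far to the right with 29 of 33, 22 of 25, 11 of 12 and 19 of 28 members raised, and 8 of 28 channels and 11 of 45 receptors are lowered.

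List medians are read against -0.01 over all genes. The median log2 change was -0.33 over opsins, -0.16 over channels, -0.12 over transmitter receptors, 0.56 over sarcomere genes and 0.32 over enzymes of the citric acid cycle. It was 0.18 over P450 genes, 0.17 over UDP-glycosyltransferases, 0.12 over glutathione transferases, 0.10 over antioxidant genes, 0.33 over odorant binding proteins and 0.32 over fat body markers. On log2(TPM plus 0.1), which is not centred, the medians of mitochondrial ribosomal proteins (-0.01), glutathione transferases (-0.01) and antioxidant genes (-0.02) turned below 0, and the other medians given here kept their sign.

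Detoxification genes changed in both directions, with most rising. Of 75 cytochrome P450 genes, 18 rose and 3 fell, with 9 rises and all 3 falls held. Calls were 28.0% of this list, against 15.6% of all genes (8.84% raised and 6.76% lowered). The rises were 11 without control replicate 2 and 33 without control replicate 1. Cyp6a2, an enzyme linked to insecticide resistance, went from 22.4, 19.7 and 22.6 CPM to 90.7, 90.3 and 85.3 CPM (2.04 ± 0.07, adjusted p = 2.6e-08), which is 4.12-fold. Cyp6w1 went from 110, 84.7 and 87.2 CPM to 372, 392 and 329 CPM (1.95 ± 0.10). Cyp309a2 went from 0.73, 0.45 and 0.28 CPM to 26.5, 17.5 and 12.4 CPM (adjusted p = 2.2e-05). Cyp12d1-d had no read in any control library, against 28.5, 28.6 and 18.6 CPM in knockdown. Its neighbour and near-identical copy Cyp12d1-p rose as well (1.85 ± 0.27), and reads may have been split between the pair. The falls were those of Cyp28a5, from 91.4, 94.5 and 93.5 CPM to 51.1, 46.0 and 57.0 CPM (-0.86 ± 0.06), Cyp6t3 (-1.30) and Cyp304a1 (-2.21).

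Conjugating enzymes were called in both directions too. Of 31 glutathione transferase genes, 5 rose, 4 of them held and all of the E class. GstE1 went from 14.8, 15.0 and 14.4 CPM to 45.7, 41.0 and 48.4 CPM (1.61 ± 0.08, adjusted p = 2.7e-07), GstE5 rose by 1.65, GstE8 by 1.20 and GstE6 by 0.30. The fifth was GstD1 (0.22, not held). In the D class, GstD3, GstD5 and GstD9 fell without being held. The rises were 14 without control replicate 1. Of 22 UDP-glycosyltransferase genes, 8 rose and 1 (Ugt35C1) fell, with 3 rises held. Ugt302C1 went from 37.2, 36.1 and 37.4 CPM to 77.1, 76.4 and 76.8 CPM (1.06 ± 0.04, adjusted p = 2.8e-08). Ugt37A3 went from 1.90, 2.30 and 2.25 CPM to 10.3, 10.9 and 14.2 CPM (2.45 ± 0.15), and Ugt35A1 from 11.2, 11.8 and 11.7 CPM to 22.1, 21.2 and 23.2 CPM (0.94 ± 0.08). The rises among the transferases of sugars were 3 without control replicate 2. Of 22 antioxidant genes 4 rose, and Sod2, the mitochondrial superoxide dismutase (0.47 ± 0.08), and PHGPx, a glutathione peroxidase (0.44 ± 0.06), were held. Without control replicate 1 there were 9 and without control replicate 2 there were 2. Calls were 18.2% of the antioxidant list, 25.8% of the glutathione transferases and 40.9% of the UDP-glycosyltransferases, against 15.6% of all genes. Of all genes tested, 8.84% rose and 6.76% fell.

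Immune effectors are given by family. The Bomanins, short peptides made under the Toll pathway, had 5 of 12 genes raised and none lowered, with 4 held. BomS2 went from 117, 81.7 and 83.0 CPM to 277, 230 and 326 CPM (1.56 ± 0.17, adjusted p = 0.00034), BomBc1 from 18.6, 13.1 and 12.8 CPM to 83.2, 75.03 and 91.2 CPM (2.49 ± 0.25) and BomS4 from 25.9, 19.1 and 18.8 CPM to 56.1, 50.2 and 53.1 CPM (1.32 ± 0.11). The groups were apart and the 3 knockdown libraries alike. BomS4, BomBc2 and BomS2 lie side by side on 2R, and BomS4 and BomBc2 overlap. The fifth, BomS1, was not held. Calls were 41.7% of this list, against 15.6% of all genes.

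The antimicrobial peptides gave no such picture. Of 16 tested, Drsl5 rose (52.4, 41.5 and 42.7 CPM against 136, 96.7 and 72.6 CPM, adjusted p = 0.010, not held), and the median over the list was -1.53. AttC stood at 354, 245 and 252 CPM in control against 23.2, 18.5 and 217 CPM in knockdown. DptB stood at 176, 190 and 193 CPM against 10.3, 6.89 and 95.5 CPM. Knockdown replicates 1 and 2 were low and replicate 3 was near the controls, and neither gene passed (adjusted p of 0.26 and 0.13). Without knockdown replicate 3, 9 of the 16 were lowered. The Turandot genes, secreted stress proteins, had the reverse arrangement. Of 5 tested, 4 rose, none held, and the count was 1 without control replicate 2. TotM was at 13.5, 11.4 and 10.6 CPM in control against 145, 150 and 33.0 CPM in knockdown (3.20 ± 0.58, adjusted p = 0.0080). TotC was at 73.0, 67.3 and 70.8 CPM against 398, 456 and 107 CPM. Of 43 genes for immune recognition and signalling, 6 rose and 4 fell, with Tep4 and GNBP1 (0.55 ± 0.06) held. PGRP-SD (-1.63) and PGRP-SB1 (-0.97) were lower without being held. Rises were 12 without control replicate 1 and 2 without control replicate 2. The called share of these 43 genes was 23.3%, against 15.6% of all genes. The share was 6.25% among antimicrobial peptides and 80.0% among Turandot genes.

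Among chaperones, 2 genes of the Hsp70 family had held rises. Hsc70-2 was at 0.16, 0.28 and 0.38 CPM in control, or 6, 11 and 15 reads, and at 16.1, 15.3 and 16.4 CPM in knockdown (adjusted p = 8.6e-09). Hsc70-1 was at 27.7, 29.9 and 28.0 CPM against 81.9, 90.8 and 58.1 CPM (1.43 ± 0.20). Hsp70Bb, the third call of 18, was not held (0.86, adjusted p = 0.014). The called share was 16.7%, near the 15.6% of all genes. The neighbours of Hsc70-2 on 3R (13044759 to 13051453) rose with it, CG31157 from 0.027, 0.025 and 0.050 CPM to 4.04, 4.21 and 5.06 CPM and CG7966 from 43.2, 30.3 and 28.6 CPM to 84.4, 65.6 and 73.1 CPM. Edem1, a factor of protein degradation at the endoplasmic reticulum, fell (-0.29 ± 0.05). Of 32 proteasome subunits none passed edgeR's test; 2 had an unadjusted p under 0.05, both higher, DESeq2 called 1, and without control replicate 1 there were 3.

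Yolk protein genes rose, unevenly among the libraries. The yolk protein genes Yp1, Yp2 and Yp3 are made by the fat body of females. Yp1 was at 7531, 5446 and 5220 CPM in control against 8399, 10647 and 16611 CPM in knockdown (0.97 ± 0.26, adjusted p = 0.032), with knockdown replicate 3 the highest. Yp2 (1.63) and Yp3 (1.20) passed as well, and fit, a satiety protein of the fat body that is higher in females, was at 103, 41.1 and 42.8 CPM against 252, 212 and 476 CPM (2.33 ± 0.43, adjusted p = 0.0088). None of Yp1, Yp2, Yp3 and fit was held. In the list of yolk, fit and sex-biased head genes, 5 of 11 rose and none fell. The fifth and only held rise was that of takeout (above), the largest of the list at 3.83. The sex-determination genes Sxl (-0.18, adjusted p = 0.19), dsx (0.08), tra (-0.17) and fru (0.05) did not pass. Their levels are summed over transcripts, so a difference in which transcript is made would not show in them. Of 17 fat body markers 5 rose and none fell. Their summed level was 28838, 19862 and 19574 CPM in control against 31901, 36375 and 60358 CPM in knockdown. The raised fat body genes were 2 without control replicate 2 and 10 without control replicate 1. The sex ratio and the fat body content of the samples were not tested. In lipid metabolism, 6 of 28 genes rose and 1 fell, with 3 rises without control replicate 2 and 16 without control replicate 1. Held were mdy, the last enzyme of triglyceride synthesis (36.9, 31.0 and 31.3 CPM against 53.7, 49.7 and 52.5 CPM, 0.65 ± 0.10), the nuclear receptor gene Hnf4 (0.32 ± 0.05), whd, which carries fatty acids into mitochondria (0.27 ± 0.05), and the fall of the lipase gene Lip3 (1.25, 1.15 and 1.18 CPM against 0.375, 0.277 and 0.235 CPM).

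Odorant binding proteins are secreted carriers of the antenna and other head tissues, and 11 of 32 rose while 2 fell. Held were Obp99a (above), Obp44a, which rose from 302, 262 and 254 CPM to 558, 476 and 506 CPM (0.91 ± 0.08, adjusted p = 2.3e-05), and Obp56g, which fell from 159, 189 and 193 CPM to 126, 130 and 142 CPM (-0.44 ± 0.07). The count of rises was 2 without control replicate 2. Some of the other raised genes had few reads in control, such as Obp83a (0.25 against 6.08 CPM on average) and Obp83b (0.33 against 4.13 CPM). This list had a median longest transcript of 626.5 bases, and of all genes of 500 to 1000 bases 12.9% rose. Of 55 odorant, gustatory and ionotropic receptor genes, 3 rose and 3 fell, and held were Or63a (10.1, 9.37 and 10.3 CPM against 6.11, 5.23 and 5.61 CPM), Or67d, the receptor of the male pheromone cVA (1.00, 0.73 and 1.05 CPM against 0.16, 0.11 and 0.29 CPM), and Or42a, which rose from 0.16, 0.23 and 0.33 CPM to 1.34, 1.74 and 1.64 CPM. Calls were 10.9% of these 55 receptor genes, against 15.6% of all genes. Of 41 cuticle protein genes 8 rose and 2 fell, with 3 rises without control replicate 2, and Cpr73D (0.33), Lcp65Ag2 (1.88) and Ccp84Ag (2.66) were held beside Cpr72Ec. Calls were 24.4% of the cuticle list and 40.6% of the odorant binding list. Of all genes, 8.84% rose and 6.76% fell.

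In genes for making and processing RNA and protein, the shares called stand against 15.6% of all genes, 8.84% raised and 6.76% lowered. They were 14.8% of the RNA polymerase II list, 15.4% of the RNA interference list, 9.52% of the spliceosome list and 2.33% of the cytoplasmic ribosomal proteins. Of 27 genes for RNA polymerase II and the enzymes of its tail, 4 fell and none rose, and Rpb4 was the held one (5.83, 6.49 and 6.34 CPM against 4.34, 4.15 and 4.44 CPM, -0.53 ± 0.10). The others were Rpb11, CycK and Cdk12, and without control replicate 2 there was 1. Of 42 spliceosome and SR protein genes, 3 rose and 1 (B52) fell. CG9667 rose by 0.48 ± 0.09, and Prp19 by 0.20, which was not held. In the RNA interference machinery, r2d2 rose (0.32) and AGO1 fell (-0.20), neither held. Of 86 cytoplasmic ribosomal proteins, RpS25 (0.15) and RpL15 (0.20) rose without being held and none fell. Of 44 translation factors, 3 subunits of the initiation factor eIF3 rose, with eIF3i held (0.19 ± 0.04), and without control replicate 1 there were 8. Of 32 aminoacyl tRNA synthetases, LeuRS (-0.29) and IleRS (-0.21) fell without being held. The hemocyte, histone and ovary lists, of 11, 4 and 6 genes, had no call in edgeR's test or in DESeq2. Of their genes 1, a hemocyte marker, had an unadjusted p under 0.05, and without knockdown replicate 3 there were 7 lowered hemocyte genes.

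The remaining short lists had 7.69% (hormone regulators) to 23.5% (serpins) of their genes called. Of all genes tested, 15.6% were called, 8.84% raised and 6.76% lowered, and of these lists only the serpins lay above 15.6%. Of 7 small heat shock proteins Hsp23 rose (0.61, adjusted p = 0.0088, not held). Of 17 serpins, inhibitors of proteases, Spn31A and Spn28Dc rose and Spn47C and Spn88Ea fell, with Spn88Ea held (-0.41 ± 0.08). Of 26 regulators of ecdysone and juvenile hormone, br (-0.19) and ftz-f1 (-0.17) fell, and of 15 cell death genes skl (-0.50) and Diap2 (-0.15), none of them held. Of 17 genes of the unfolded protein response Edem1 fell and Ero1L rose (0.20, not held). Of 17 midgut enzyme genes Mal-B2 (0.81) and Jon74E (1.92) rose, and of 8 genes of testis and accessory gland Sfp33A3 (0.05 against 0.32 CPM on average), with no held call. Without control replicate 2 no serpin or midgut gene was raised and no cell death gene was lowered, and without control ZT16 replicate 3 no hormone regulator was lowered. Without control replicate 1 there were 5 raised serpins, 4 raised and 4 lowered hormone regulators and 5 raised midgut genes.

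Some noncoding RNAs were near 0 in 1 genotype. The RNA lncRNA:CR45284 had 2, 5 and 2 reads in control, against 12.2, 14.9 and 11.1 CPM in knockdown (adjusted p = 1.3e-05). In the other direction asRNA:CR45822 was at 10.2, 9.19 and 8.87 CPM in control against 0.32, 0.06 and 0.16 CPM in knockdown (adjusted p = 4.6e-07), and asRNA:CR45835 at 8.27, 8.17 and 7.74 CPM against 0.54, 0.39 and 0.16 CPM. Abundant among the falls was asRNA:CR45600, from 108, 109 and 103 CPM to 49.6, 49.7 and 40.4 CPM (-1.20 ± 0.08, adjusted p = 1.9e-06). It overlaps CG6912 and CG3984 on 3R (15135138 to 15140121), which were held falls too (-0.93 and -0.67), and reads of these genes cannot be told apart where they overlap. Over the lists, 18 of 331 long noncoding RNAs rose and 24 fell, with 10 and 12 held, and 13 of 180 antisense RNAs rose and 11 fell, with 4 held in each direction. Without control replicate 2 the long noncoding RNAs had 12 rises and 13 falls, without control replicate 3 the antisense RNAs had 6 rises and without knockdown replicate 1 they had 4 falls. Calls made up 12.7% of the long noncoding list and 13.3% of the antisense list, against 15.6% of all genes.

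By chromosome arm, held genes made up 2.30% of the X-linked genes tested (41 of 1782), and 5.999% on 2L, 5.47% on 2R, 4.83% on 3L, 6.55% on 3R and 8.25% on chromosome 4 (8 of 97). Over all calls the share was 12.3% on the X and 15.1% to 17.3% on the arms of chromosomes 2 and 3. At ZT16 the X was also lowest, with 18.1% called against 22.0% to 24.6%, and 11.5% against 14.8% to 16.8% without control ZT16 replicate 1. Held genes lay next to each other with the same direction in 51 of 10708 adjacent pairs and with opposite directions in 17. There were 7 runs of 3 or more, with 23 genes. Besides those named above, they were a run on 3L (CG9149, CG2277 and Ctr9, a subunit of the PAF1 complex, -0.35 to -0.54), one on 3R (fau, CG45078 and Desi, raised) and one on 2L (18808694 to 18813941) whose 4 gene names share 2 sets of counts. In all, 109 tested genes, 8 of them held, had the same values as another gene, so that calls of overlapping gene models were counted more than once.

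Transcript length went with direction at ZT8. Of genes whose longest transcript was under 500 bases, 12.8% rose and 4.89% fell, while of those over 6000 bases 3.45% rose and 21.2% fell. The median log2 change went from 0.09 in the shortest class, of 266 genes, to -0.10 in the longest, of 812. At ZT16 the same classes had 11.7% raised and 9.02% lowered against 11.5% and 14.04%, and without control ZT16 replicate 1 9.40% and 7.52% against 5.79% and 9.73%. The median longest transcript was 1667 bases over raised and 3428.5 bases over lowered genes, and 1590 and 2818 bases over the held ones. By library, mRNA genes over 6000 bases had a median deviation from the ZT8 mean of 0.01, 0.08 and 0.05 on the log2 scale in the controls and -0.06, -0.02 and -0.07 in the knockdown. All 3 knockdown libraries lay below all 3 controls. Control replicate 1 and knockdown replicate 2 were nearest to 0.

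**Figure D4:**
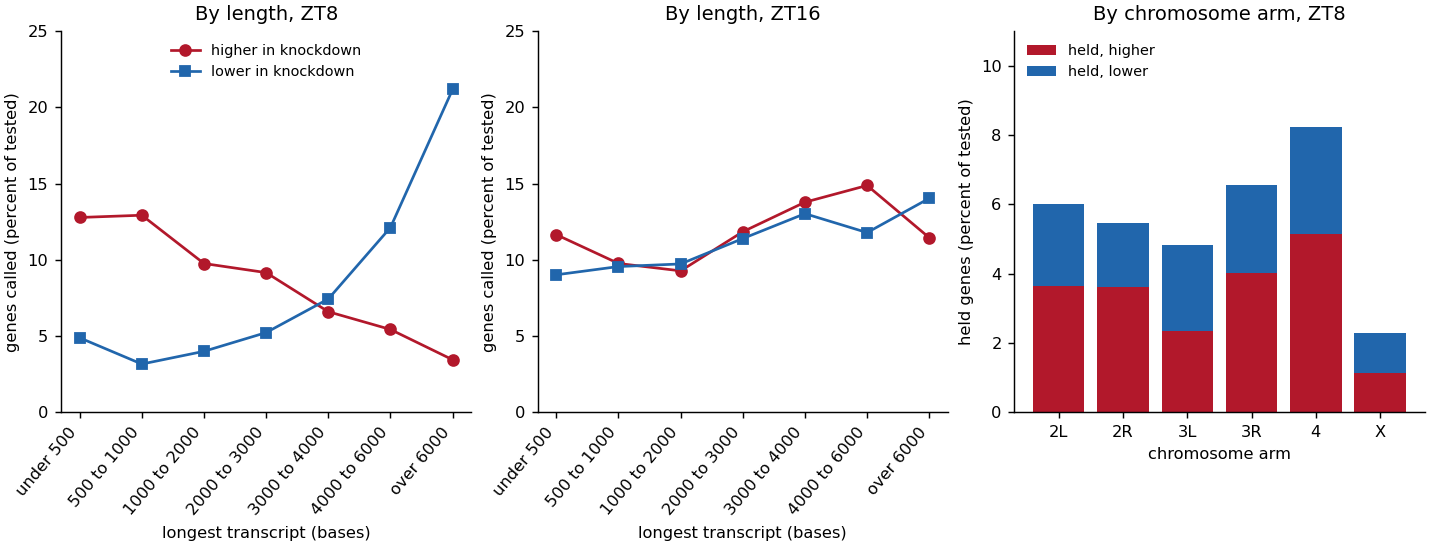
Percent of tested genes that were called higher (red circles) or lower (blue squares) in knockdown, by length of the longest transcript in bases, at ZT8 (left) and ZT16 (middle), and percent of tested genes held at ZT8 by chromosome arm (right, stacked bars). At ZT8 the lowered share climbs to 21.2% in the longest class, at ZT16 both lines stay between 9.02% and 14.9%, and the X has the lowest held share, 2.30%.

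The shares of a gene's transcripts can change while its level does not. The share was tested with limma's diffSplice F test in 5448 genes with 2 or more transcripts, and 652 were called (12.0%), of which 242 were still called with any 1 library left out. The number called was 387 without control replicate 2. Of the 242, 158 were not called for level, and 142 had a transcript that moved by 10 percentage points or more with no overlap between the groups. In 96 of these the transcript that moved most also did not overlap between genotypes at ZT16, with the same direction. How many of all 5448 genes tested would meet these rules was not counted, so 142 and 96 have no background here. In RpS21, a protein of the small ribosomal subunit, transcript E held 0.5%, 0.4% and 0.4% of the gene's counts in control and 16.1%, 15.5% and 16.7% in knockdown, while transcript A went from 92.3%, 93.6% and 94.5% to 80.2%, 80.2% and 78.1% (adjusted p = 1.7e-15). The level of RpS21 did not pass (-0.15, adjusted p = 0.072).

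In ND-15, a complex I subunit, transcript A went from 22.9%, 23.6% and 23.0% to 47.6%, 49.0% and 45.9%, and transcript B from 62.8%, 62.0% and 61.8% to 41.0%, 39.1% and 43.5%. In Nmda1, the obligate subunit of NMDA glutamate receptors, transcript C went from 40.7%, 38.7% and 38.8% to 61.1%, 62.0% and 61.3% (adjusted p = 5.0e-11), and the gene's level fell (-0.21 ± 0.04, held). In RpS21, ND-15 and Nmda1 these shares did not overlap between the groups. Smaller shifts were seen in Ggamma30A, the G protein subunit of phototransduction (transcript F from 25.1% to 17.8% on average, B from 11.8% to 17.0%), in trol, the fly perlecan (AO from 11.5% to 3.9%, AY from 3.3% to 10.2%), and in CG34417 (X from 20.3% to 33.1%). Of transcripts picked after their values were seen, nrv1 transcript A, of a subunit of the sodium pump, fell from 85.6% to 39.4%, and transcript A of CG15628 from 68.4% to 4.7%. Of the core clock genes, per, tim, Clk, vri, Pdp1 and cwo were tested for transcript usage and none was called (adjusted p of 0.16 to 0.82). The genes cyc and cry, with 1 transcript each, were not tested. RSEM divides reads of shared exons among transcripts, so shares of transcripts that differ in little sequence are estimates.

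**Figure D5:**
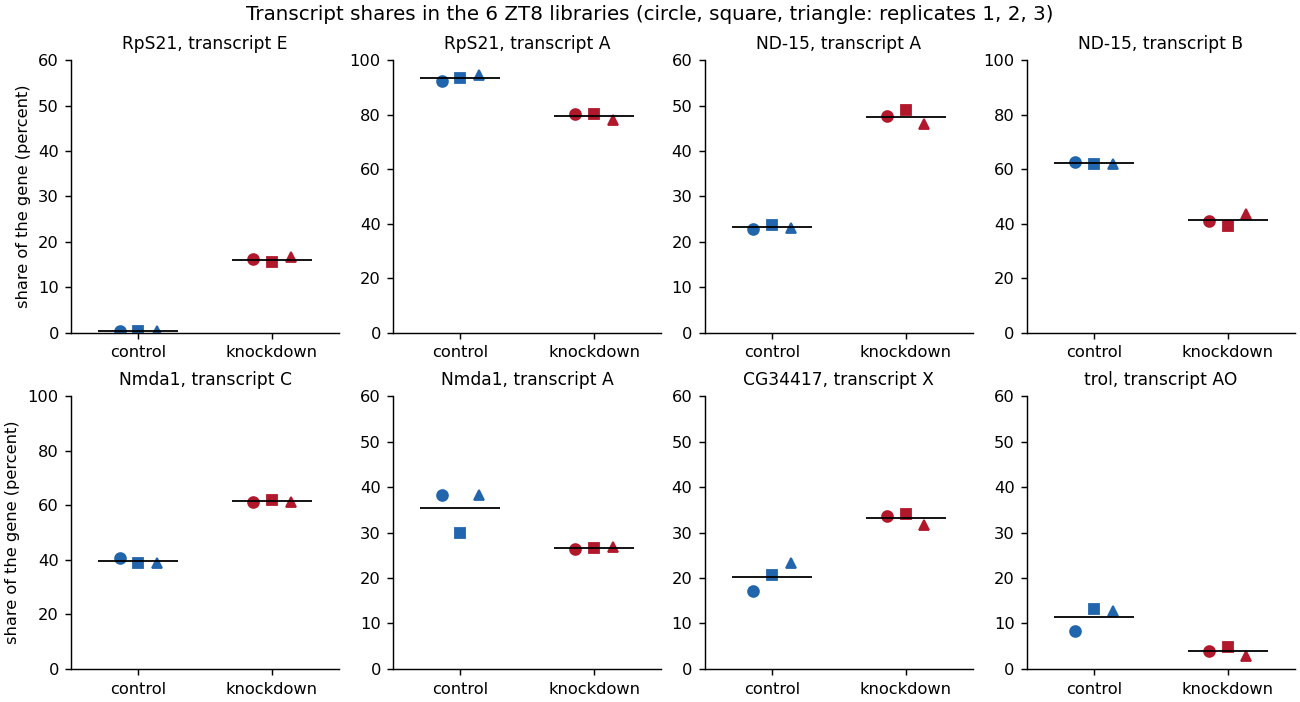
Share of a gene's counts (percent, linear from 0) held by 8 transcripts of 5 genes in the 3 control and 3 knockdown libraries at ZT8, with group means as lines; symbols mark replicates 1 to 3. The shares lie within a few points in each group, as in RpS21 transcript E (0.4% to 0.5% against 15.5% to 16.7%).

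Set beside ZT16, most of the held changes were called there too. Of the 558, 343 passed at ZT16 in the same direction, 7 in the opposite direction and 208 did not pass, where 22.2% of all genes were called at ZT16. Without control ZT16 replicate 1, 15.1% of all genes were called at ZT16, and of the 558 genes 307 passed in the same direction, 7 in the opposite one and 244 did not pass. The comparisons at the 2 times share no library but were fitted with 1 common estimate of the spread. Rh5 (-0.67 at ZT8 and -0.64 at ZT16), Usp8 (-0.42 and -0.40), to (3.83 and 3.70), Ugt37A3 (2.45 and 2.53), Cyp6a2 (2.04 and 1.91), GstE1 (1.61 and 1.51) and CG6654 (-1.93 and -1.88) had nearly the same change at both times, and without control ZT16 replicate 1 the values at ZT16 were -0.67, -0.44, 3.66, 2.56, 1.87, 1.57 and -1.92 in this order. Period fell by 0.26 at ZT8 and by 0.35 at ZT16, and the difference between the times did not pass (adjusted p = 0.45).

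The difference itself, the effect at ZT16 minus that at ZT8, was called in 448 genes (4.18%), 76 of them held at ZT8. That number fell to 19 without knockdown ZT16 replicate 1, to 22 without control ZT8 replicate 2, to 24 without control ZT16 replicate 3, to 27 without control ZT8 replicate 3, to 73 without knockdown ZT16 replicate 3 and to 116 without knockdown ZT8 replicate 1. It was 269 without control ZT16 replicate 2, 292 without knockdown ZT16 replicate 2, 257 without knockdown ZT8 replicate 2 and 1107 without control ZT8 replicate 1. In all 12 of these fits 18 genes passed, 13 of them called at ZT8. Ldh was among them, 0.76 higher in knockdown at ZT8 and 1.06 lower at ZT16 on the log2 scale. CG31664 had the same turn (0.72 and -0.75), and CG17211 the opposite one (-0.54 and 0.33). Arc1 fell at both times, by 0.51 at ZT8 and by 1.93 at ZT16. For Pdf, which fell at ZT8 and had a change of -0.03 at ZT16, the difference was 0.44 (adjusted p = 0.024) and was lost in 6 of the 12 fits.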

How the data were processed

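RNA was made from heads with QIAzol and sequenced from TruSeq Stranded mRNA libraries, per the labels' protocols. The submitters' processing notes name STAR 2.6.0c, RSEM 1.3.1 and dm6, and the strand setting of the counting is not given in the sources used here. The deposited table holds expected counts per transcript that the authors estimated for each library, which were used here. It also holds the authors' FPKM values, which were not used, and their TPM values, which served as an alternative.

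Estimated counts were summed over transcripts by gene symbol and rounded to whole numbers. Of 35536 transcripts of 17816 genes, 10717 genes passed edgeR's filterByExpr with a minimum count of 10. edgeR 4.0.16 (R 4.3.3) was fitted with TMM factors to all 12 libraries as 4 group means (8 residual degrees of freedom), with robust quasi-likelihood F tests and Benjamini-Hochberg adjustment over all genes tested at 0.05. All adjusted p-values of levels come from this fit. Standard errors are the log2 change over the square root of F and are rough for few reads. CPM uses the TMM library size. Held calls passed, in the same direction, in each of 12 fits without 1 library and in the 6 ZT8 libraries alone. Transcript shares were tested with limma 3.58.1 (diffSplice). The count of genes called and the test of shares were run on simulated counts that had no effects shared by a whole library. That run therefore does not bear on how the calls depend on single libraries.

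The genes named are CG5808, the core clock, the 12 largest held rises and falls by log2 change and the 8 largest by CPM (at least 5 CPM in the higher and 1 CPM in the lower group, no overlap), up to 4 held members per list or else 2 by p, 6 genes for shares and 6 for the difference between times. Other genes named, among them those of the neighbour runs, the sex-determination genes, members of lists that were called but not held, and the comparison of levels at both times, were chosen after their values were seen. Members and gene lists were chosen with earlier results of these data known, and the patterns for some lists were corrected after wrong matches were seen. Controls and knockdown share replicate numbers in the sample titles, but the numbers in their ZT8 library names differ for replicates 1 and 2. Libraries of ZT8 with the same title number had correlations of their deviations of 0.27, -0.10 and 0.19, so the numbers were not taken as pairs.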

Additional observations from a re-analysis of the deposited data

Results flagged for a closer look

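The named genes below had a knockdown effect that differed between ZT16 and ZT8 by the test of the difference itself (edgeR, adjusted over all genes), given as the log2 effect at ZT16 minus that at ZT8. The difference was negative for Ldh (-1.81), CG31664 (-1.47), Arc1 (-1.42), bnl (-1.10), Lst (-0.94) and CG8112 (-0.84), and these 6 passed with any 1 library left out. The other negative ones, which at least 1 such fit lost, were TotM (-4.21), TotC (-2.71), CG14502 (-1.63), Hsc70-1 (-1.23), Hsc70-2 (-1.11), Tep4 (-0.67), Cyp6w1 (-0.62), GstE6 (-0.44), Prosbeta2 (-0.36), Ugt302C1 (-0.36), mRpS7 (-0.34), RpS25 (-0.30) and mRpL37 (-0.28). It was positive for skl (0.83), trol (0.48), DAT (0.45), Pdf (0.44), brp (0.37) and br (0.34), and each of these was lost in at least 1 fit.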

How the results depend on the processing

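Of 1671 genes called at ZT8 (947 raised, 724 lowered), the 6 ZT8 libraries alone gave 871 (505 and 366). With 1 library left out the calls ranged from 673 (402 and 271, without control ZT8 replicate 2) to 2735 (1563 and 1172, without control ZT8 replicate 1). Log2(TPM plus 0.1) gave 573 raised and 1760 lowered, log2(TPM plus 1) 580 and 1777, and no scaling factors 732 and 1098. On these scales the median of all genes moved to -0.14 (TPM plus 0.1) and -0.08 (no scaling). TPM centred on that median, added after seeing the data, gave 943 and 541. DESeq2 called 1992, limma-voom 1799 and no filter 1354. A replicate block called 1636 (1016 raised, 620 lowered), of which 1375 were also called without it.

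The 448 genes whose effect differed between times became 170 with the replicate block, 141 without scaling factors, 240 without a filter, 73 and 78 on TPM plus 0.1 and plus 1, and 918 in DESeq2. They became 806 with the rRNA class of the ZT8 libraries (over 5% or not) as a term and 198 on centred TPM. Both settings were added after seeing the data. With 1 library left out the number ranged from 19 to 1107. Genes called for transcript usage ranged from 387 to 706. Of the 144 called genes that the naming rule gave, none changed sign in the alternatives that tested them. The rule drew mostly on held calls, which keep their sign by definition in the leave-one-out fits, so this adds no separate support. Of the 144, 20 lost their call without control ZT8 replicate 2, 20 without control ZT8 replicate 3 and 19 in the ZT8 libraries alone. Pairing by title number (the block) is not used in the report. CG5808 ranged from -0.16 to -0.42 with 1 library left out (adjusted p of 0.11 to 0.46). The causes were not tested. At 105 to 197 reads per ZT8 library, the depth limits what can be said of CG5808.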

Other observations

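Hsp22, a small heat shock protein of mitochondria, was among the genes whose knockdown effect differed between the times with any 1 library left out. Its log2 change was 0.40 at ZT8 (adjusted p = 0.20) and -4.49 at ZT16, a difference of -4.89. Retinin, a protein of the corneal lens, had a difference of 0.96.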
